A study of Mus musculus with 74 samples.

Results

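Csdc2 encodes a small cold-shock-domain protein, also called PIPPin, that binds RNA. It is 1 of 5844 genes that a mouse array measures with probes of a single gene symbol, and 2 of the 8976 probes carry that symbol. They are probes 2622 and 7126, both annotated with gene ID 105859, and they were kept separate throughout. Csdc2 was chosen from its measured values, namely the higher ratio of probe 2622 after TGF-β in the line S2WT. The values of that line are therefore given as a description, without a test. The other lines were tested, although their results were also in view when the gene was taken up.

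TGF-β binds receptor kinases at the cell surface, which activate the transcription factors Smad2 and Smad3. These enter the nucleus with Smad4 and turn target genes up or down, while other branches of the receptor signal through kinases such as MEK. The cold-shock domain is an ancient nucleic-acid-binding fold, shared by bacterial cold-shock proteins and by animal proteins that control the translation and stability of messages. In rat brain the PIPPin protein is known to bind messages of replacement histones.

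The data come from 74 arrays with 2 channels each, in 25 groups of 3 arrays, except for S3KO at 1 h with 2. There are 5 sets, labelled S2KO, S3KO, U0126, S3WT and S2WT and called lines below, each sampled at 0, 0.3, 1, 2 and 4 h. By its channel labels, U0126 is not a separate line but S2WT together with U0126. Per the labels, an array compared RNA of a line given TGF-β with RNA of the same line without it, and at 0 h neither channel had TGF-β. The matching published study worked on mouse embryo fibroblasts, where S2 and S3 stand for Smad2 and Smad3, KO and WT for knockout and wild type, and U0126 is a MEK inhibitor. The labels themselves name no cell type, dose, dye or culture, nor whether replicate arrays came from separate cultures. The p-values therefore rest on array-to-array spread alone, and this may be technical. A ratio within a line cannot check a knockout or a cell type, and in bulk RNA a change in cell makeup and a change in RNA per cell cannot be told apart.

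Some labels conflict. The U0126 arrays have titles that set S2WT against U0126, whereas their channel labels name both together, without and with TGF-β, and the channel labels were followed. Were the titles right, the inhibitor itself would contribute to these ratios. The S2WT arrays titled 4 h carry 2 h in their channel labels, and at 0.3 h both channels of the S3KO arrays are labelled as lacking TGF-β.

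Values below are log2 ratios, each minus the median of its array, so that 0 is the median probe. The direction of the deposited ratio is not stated. It is taken as likely channel 2 (with TGF-β) over channel 1, because most probes of a list of TGF-β reference genes averaged above 0 on late arrays, namely 12 of 13 in S2KO, 11 of 12 in S3KO, 11 of 13 in U0126, 10 of 12 in S3WT and 11 of 12 in S2WT. Many did so at 0 h too, without TGF-β, namely 9, 6, 8, 6 and 8 of them in the same lines, and the late response itself was above 0 for 12, 7, 11, 11 and 10. That list was drawn up with earlier results of these data known, so it is not independent evidence of the direction. Arrays gave between 7688 and 8713 values, and the signal behind a ratio is unknown, so the number of arrays limits the precision. Over all probes, no pair of arrays correlated below -0.19. Of the 74 arrays, 3 stood apart with a negative median r with the others, all of S3KO, namely 1 h replicate 2 (-0.065) and 0 h replicates 1 (-0.052) and 2 (-0.035), against 0.12 for 0 h replicate 3 (r across genes, which are not independent replicates). The 0 h replicates 1 and 2 were also blank for 11.8% and 13.7% of probes, and they belong to the baseline of every S3KO late response and difference.

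The late response of a line is its level averaged over the 1, 2 and 4 h groups, less its 0 h level. A probe is called where limma's moderated test, fitted over all 74 arrays, gave a Benjamini-Hochberg adjusted p below 0.05 over all probes tested.

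On probe 2622, Csdc2 rose late in the S2KO line, by 1.22 ± 0.29 (SE, 9 treated and 3 arrays at 0 h, limma, adjusted p = 0.036). In S3KO the late response was near 0, at -0.08 ± 0.29, with a 95% interval from -0.67 to 0.51. In U0126 and S3WT the values were 0.61 ± 0.29 and 1.14 ± 0.29, and neither passed (limma, adjusted p = 0.768 and 0.0761). In S2WT, where the gene was picked, it was 1.38 ± 0.29. Over the whole array, 0.393% of the probes tested were called higher in S2KO, and 0.515%, 1.53%, 0.0719%, 0.12% and 0.192% were called in either direction in S2KO, S3KO, U0126, S3WT and S2WT.

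**Figure D1:**
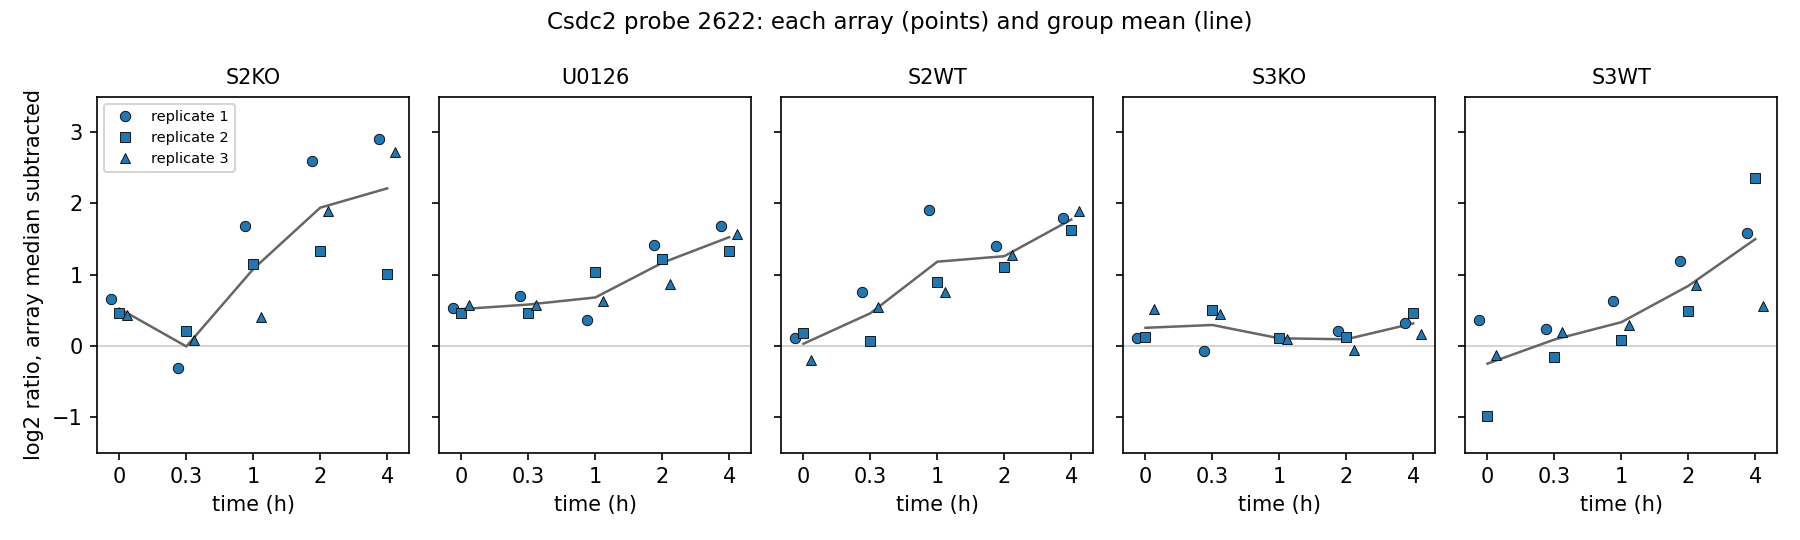
Csdc2 probe 2622 on every array, as log2 ratio with the array median subtracted (vertical axis) against time in h (horizontal axis, evenly spaced steps), with a panel per line. Points are arrays, marked by replicate number, and the line joins group means. The mean at 4 h is 2.21 in S2KO, 1.52 in U0126, 1.77 in S2WT and 1.5 in S3WT, while S3KO arrays stay between -0.08 and 0.52 at all times.

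In S2KO the arrays read 0.66, 0.46 and 0.44 at 0 h, then -0.31, 0.20 and 0.08 at 0.3 h. They read 1.68, 1.15 and 0.41 at 1 h, 2.59, 1.34 and 1.89 at 2 h, and 2.90, 1.00 and 2.72 at 4 h. The group means were 0.52, -0.01, 1.08, 1.94 and 2.21 over the time course. Of the 9 late arrays, 8 lay above the highest 0 h array, and 1 h replicate 3 was the exception. Every late array lay above every 0 h array for 0.834% of all probes in this line, which did not include probe 2622. The replicates spread most at 4 h (SD 1.05, n = 3), where replicate 2 was well below the other two.

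The S2KO call was not firm. Leaving out 1 array at a time kept it in 4 of 12 fits, with values from 1.11 to 1.42 and adjusted p from 0.00118 to 0.109. It was lost, at 1.11 to 1.29, without any of the 0 h replicates 1, 2 and 3, without 1 h replicate 1, without 2 h replicate 1 or 3, and without 4 h replicate 1 or 3. Fitted on S2KO arrays alone, the adjusted p was 0.915, and with arrays scaled to a common spread the value was 0.85 (adjusted p = 0.234). It was also lost without centring. Of the 10 alternative settings, 7 kept the call, such as array weights (1.29, limma, adjusted p = 0.00406). Those 7 include fits against 0 and against pooled 0 h arrays, which do not use the line's own 0 h arrays alone. With a background pooled from the 0 h arrays of the 5 lines, the value was 1.53. That pool holds the S2WT 0 h arrays of the contrast that chose the gene, so this value is a description.

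The S3KO arrays read 0.11, 0.12 and 0.52 at 0 h, -0.08, 0.51 and 0.45 at 0.3 h, and 0.11 and 0.10 at 1 h. At 2 h they read 0.21, 0.13 and -0.06, and at 4 h 0.32, 0.46 and 0.17. None of the 8 late arrays lay above the highest 0 h array, while 1.23% of all probes had every late array above every 0 h array. Of the arrays that stand apart in this line, 1 h replicate 2 read 0.11 on this probe, next to 0.10 for the other array of its group, and 0 h replicates 1 and 2 read 0.11 and 0.12, against 0.52 for replicate 3. The late response was -0.08 without the 1 h array, -0.12 with its sign turned, and -0.15 without either of the 0 h arrays 1 and 2. Without 0 h replicate 3 it was 0.052. Against the 0 h arrays of the other 4 lines, S2WT among them and with no S3KO baseline, it was -0.033.

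In U0126 the 0 h arrays read 0.52, 0.45 and 0.57, and the 0.3 h arrays 0.70, 0.46 and 0.57. They read 0.36, 1.04 and 0.63 at 1 h, 1.42, 1.21 and 0.86 at 2 h, and 1.68, 1.33 and 1.57 at 4 h. The 3 arrays at 4 h and the 3 at 2 h all lay above every 0 h array, and so did 2 of the 3 at 1 h. Every late array lay above every 0 h array for 0.994% of all probes in this line, which did not include probe 2622. The background ratio of this line was 0.51 ± 0.06 (SD, n = 3), away from 0 although neither channel had TGF-β. How large the late response is depends on that background: against the pooled 0 h arrays it was 0.91, and 0.92 with S3KO left out of the pool. Both pools hold the S2WT 0 h arrays of the contrast that chose the gene, so these values are a description.

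The S3WT arrays read 0.36, -0.99 and -0.12 at 0 h, and 0.23, -0.16 and 0.19 at 0.3 h. They read 0.63, 0.08 and 0.29 at 1 h, 1.19, 0.48 and 0.85 at 2 h, and 1.59, 2.35 and 0.55 at 4 h. All 9 late arrays lay above the 0 h mean of -0.25, and 7 of them above the highest 0 h array, where 1.04% of all probes had every late array above every 0 h array. The 0 h arrays were far apart here, with replicate 2 about 1 unit below 0. Without that array the late response was 0.77 (limma, adjusted p = 0.757). It was called without 0 h replicate 1 (1.45, adjusted p = 0.0144), without 4 h replicate 3 (1.30, adjusted p = 0.0322) and with scaled arrays (1.32, adjusted p = 0.0161).

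S2WT, the line for which Csdc2 was known, read 0.10, 0.19 and -0.21 at 0 h and 0.76, 0.06 and 0.55 at 0.3 h. It read 1.90, 0.89 and 0.75 at 1 h, 1.40, 1.10 and 1.28 at 2 h, and 1.79, 1.63 and 1.89 at 4 h. All 9 late arrays lay above every 0 h array, which held for 1.61% of the probes tested in this line. Because this contrast chose the gene, nothing is read from that. At 2 and 4 h the 3 replicates were close together, with SDs of 0.15 and 0.13 (n = 3 each). Leaving out each array in turn moved the late response between 1.26 and 1.45.

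**Figure D2:**
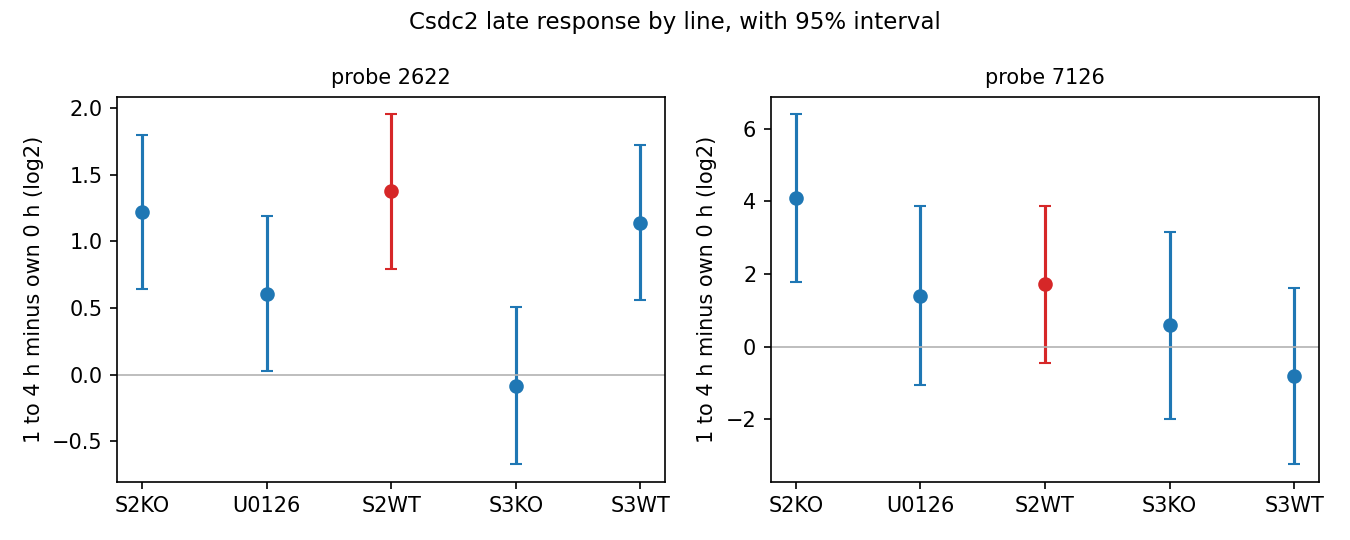
Late response of Csdc2 in each line, as the mean of 1, 2 and 4 h minus own 0 h arrays in log2 units (vertical axis), for probe 2622 on the left and probe 7126 on the right. Points are estimates and bars are 95% intervals from the fit over all arrays, with S2WT in red because it is a description only. On probe 7126 the S2KO and S3KO values were not tested by limma either, although they share the colour of the tested ones. On probe 2622 the S3KO interval runs from -0.67 to 0.51 and that of S2KO from 0.64 to 1.80. The vertical scales of the panels differ.

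An exact permutation test (two-sided) set late against 0 h arrays within a line, for both probes and the 4 tested lines. On probe 2622 the exact permutation test gave p = 0.0455 in S2KO, 0.576 in S3KO, 0.0591 in U0126 and 0.0409 in S3WT. Adjusted over the 8 tests, these exact p-values were 0.0909, 0.73, 0.0945 and 0.0909, so none passed. The smallest p that this design allows on probe 2622 is 0.00455, or 0.00606 in S3KO.

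Whether the lines respond differently was tested as a difference of late responses, in which S3KO serves both comparisons. S3KO minus S3WT was -1.22 ± 0.41, with a 95% interval from -2.05 to -0.39, and did not pass over all probes (limma, adjusted p = 0.272, unadjusted p = 0.0046). S3KO minus S2KO was -1.30 ± 0.41, with an interval from -2.13 to -0.47 (limma, adjusted p = 0.192, unadjusted p = 0.00266). Over all probes 0.126% and 0.227% were called in these comparisons, which is 9 and 16 probes, and 311 and 266 without S3KO 0 h replicate 3. Probe 2622 was called in neither without any 1 of the S3KO 0 h arrays, at -1.29 to -1.09 against S3WT (adjusted p = 0.174 to 0.388) and -1.37 to -1.17 against S2KO (adjusted p = 0.155 to 0.27). Compared directly on treated arrays, without 0 h subtraction, S3KO minus S2KO was -1.57 (limma, adjusted p = 1.55e-06) and S3KO minus S3WT was -0.72 (adjusted p = 0.381). In that setting 112 of 7427 and 0 of 7534 probes were called. The direct comparison keeps any difference in background between lines, which was 0.25 in S3KO, against 0.52 in S2KO and -0.25 in S3WT.

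Differences from S2WT share the contrast that chose the gene and are described only. The late response minus that of S2WT was -0.15 ± 0.41 in S2KO, -1.46 ± 0.41 in S3KO, -0.77 ± 0.41 in U0126 and -0.23 ± 0.41 in S3WT. The sign turned for S2KO without centring (0.083) and on the treated arrays alone (0.34), and for S3WT with scaled arrays (0.11). The U0126 difference shrank to -0.28 on the treated arrays alone and to -0.47 without centring.

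At 0.3 h no line tested had a called change on probe 2622. The differences from own 0 h arrays were -0.53 ± 0.35 in S2KO, 0.04 ± 0.35 in S3KO, 0.06 ± 0.35 in U0126 and 0.34 ± 0.35 in S3WT (limma, adjusted p = 1, 0.998, 1 and 1), and 0.43 ± 0.35 in S2WT. Over all probes 0.0235%, 0.845%, 0.0355% and 0.152% were called at 0.3 h in S2KO, S3KO, U0126 and S3WT.

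Between 1 and 4 h the change in the mean of probe 2622 was 1.13 ± 0.35 in S2KO, 0.21 ± 0.40 in S3KO, 0.85 ± 0.35 in U0126 and 1.17 ± 0.35 in S3WT, and none of these steps passed (limma, adjusted p = 0.14, 0.999, 0.526 and 0.288). Over all probes 0.753%, 0.19%, 0.139% and 0.0576% were called for this step. In S2WT the step was 0.59 ± 0.35, with the 4 h time uncertain by its label. The S2KO step was called without 4 h replicate 2 (1.74, adjusted p = 0.00179), without centring (1.43, adjusted p = 0.0265) and with array weights (1.54, adjusted p = 0.00622). The S3WT step was called without 4 h replicate 3 (1.64, adjusted p = 0.0244) and with scaled arrays (1.30, adjusted p = 0.0402).

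The order of the 25 groups rests on the likely direction of the ratio and would turn round, with every sign, in the other direction. Ordered by mean, they began with S2KO at 4 h (2.21) and 2 h (1.94), followed by S2WT at 4 h (1.77), U0126 at 4 h (1.52) and S3WT at 4 h (1.5). The lowest were S3WT at 0.3 h (0.09), S2WT at 0 h (0.03), S2KO at 0.3 h (-0.01) and S3WT at 0 h (-0.25). The gap between neighbours in this order exceeded the larger of their SDs once, between S2WT and U0126 at 4 h (gap 0.25). S3KO groups took places 17 to 21.

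The other Csdc2 probe, 7126, was far noisier. Its SD within groups was 1.58, higher than or equal to 96.8% of 8950 probes, whereas that of probe 2622 was 0.43, against a median of 0.58. It was blank on 12 of 74 arrays, and probe 2622 on none. Over the 62 arrays with both, the probes correlated with r = 0.31 (Spearman 0.41), or 0.38 without the 2 arrays farthest out on probe 2622. Within lines r was 0.68 in S2KO (n = 11), 0.25 in S3KO (n = 11), 0.72 in U0126 (n = 13), -0.36 in S3WT (n = 14) and 0.63 in S2WT (n = 13). The points of these correlations share arrays and RNA, so no p is given.

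**Figure D3:**
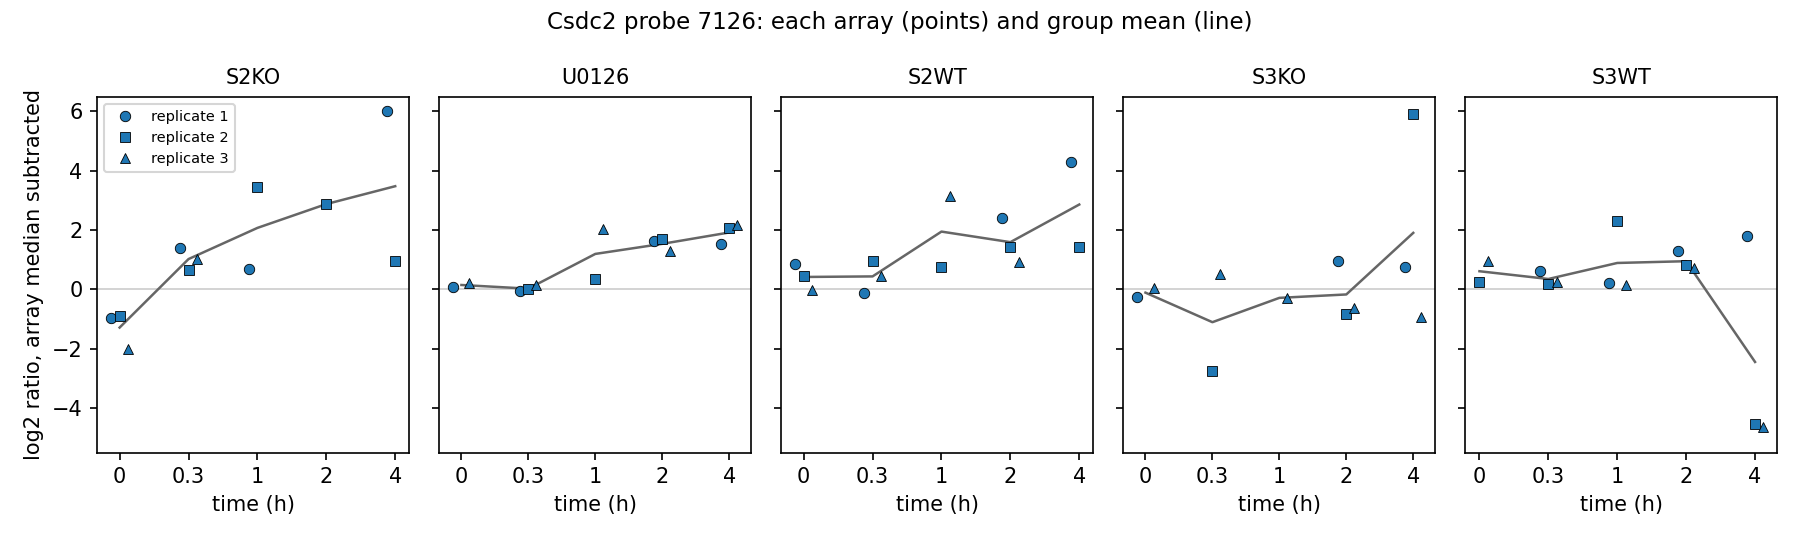
Csdc2 probe 7126 on every array with a value, drawn as for probe 2622 but on a wider vertical scale (log2 ratio, array median subtracted, against time in h). Points are arrays and the line joins group means. The S3WT arrays at 4 h read 1.81, -4.53 and -4.63, and single arrays reach 6.0 in S2KO and 5.90 in S3KO.

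In S2KO probe 7126 read -0.96, -0.90 and -2.0 at 0 h and 1.41, 0.65 and 1.01 at 0.3 h. Its late arrays read 0.68 and 3.47 at 1 h, 2.88 at 2 h, and 6.0 and 0.95 at 4 h, with 4 of the 9 blank. All 5 late values lay above every 0 h value. In this line 0.834% of the 8151 probes tested had every late array above every 0 h array. Probe 7126 was not among those tested, and 5410 of them had a value on every array. The share is therefore not like for like, as 5 values against 3 separate more easily. With a single array at 2 h the contrast was not tested by limma, and its value was 4.09 ± 1.14. The exact permutation test gave p = 0.0357, or 0.0909 adjusted over the 8 tests.

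In U0126 all 8 late values of probe 7126, from 0.36 to 2.16, lay above both 0 h values, 0.08 and 0.21. The late response was 1.40 ± 1.22 (limma, adjusted p = 0.999). By the exact permutation test this was p = 0.0222, the smallest that 8 late values against 2 at 0 h allow, and 0.0909 adjusted over the 8 tests. Every late array lay above every 0 h array for 0.994% of all probes in this line. Of those 8349 probes, 5933 had a value on every array. The share is therefore not like for like, as 8 values against 2 separate more easily.

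In S3KO the late values of probe 7126 ran from -0.93 to 5.90 with a median of -0.29, around the 0 h values of -0.26 and 0.04. The late response, 0.59 ± 1.27, was not tested by limma because 1 h had a single value, and the exact permutation test gave p = 0.639, or 0.73 adjusted over the 8 tests. It was -0.07 without 4 h replicate 2, the array at 5.90.

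The probes disagreed most in S3WT at 4 h, where probe 2622 read 1.59, 2.35 and 0.55 and probe 7126 read 1.81, -4.53 and -4.63. The late response of probe 7126 was -0.81 ± 1.2 there (limma, adjusted p = 1). Its step from 1 to 4 h was -3.34 ± 1.25 (adjusted p = 0.691), and it was called at -5.47 without 4 h replicate 1 (adjusted p = 0.0458). In S2WT probe 7126 read 0.84, 0.44 and -0.03 at 0 h and from 0.74 to 4.29 late, with 2 of 9 blank. Its late response in S2WT was 1.71 ± 1.06, the same sign as probe 2622.

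Probes with a pattern like that of probe 2622 were ranked by Pearson's r over the 25 group means, among 5302 single-symbol probes with at least 2 arrays in every group. The 5 most alike were Hs6st1 (0.91), a heparan sulfate sulfotransferase, Hbegf (0.89), a ligand of the EGF receptor, Abcb10 (0.87), a mitochondrial ABC transporter, Smurf1 (0.87), a ubiquitin ligase of the Smad pathway, and Garem2 (0.87), an adaptor in growth factor signalling. The median r over all 5302 was 0.03, and 21 exceeded 0.8. These points share arrays and centring, and they are a description. With Spearman's rho, or without centring, 4 of the 5 were again among the 5 most alike.

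The sizes differed among these genes. Hbegf had late responses of 2.27 ± 0.37 in S2KO, 0.31 ± 0.38 in S3KO, 1.02 ± 0.37 in U0126, 1.31 ± 0.37 in S3WT and 1.76 ± 0.37 in S2WT, each numerically larger than that of Csdc2, with the differences between the genes not tested. Hs6st1 had 0.64 ± 0.20 in S2KO, -0.05 ± 0.20 in S3KO, 0.46 ± 0.20 in U0126, 0.25 ± 0.20 in S3WT and 0.76 ± 0.20 in S2WT. Garem2 was at 0.65 ± 0.32 in S3KO, where Csdc2 was at -0.08. The 3 least alike were Snx33 (-0.81), a sorting nexin, Txnip (-0.81), the thioredoxin inhibitor, and Vldlr (-0.80), a lipoprotein receptor. Only 1 of these 3 was again among the 3 least alike with Spearman's rho, and likewise 1 without centring.

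**Figure D4:**
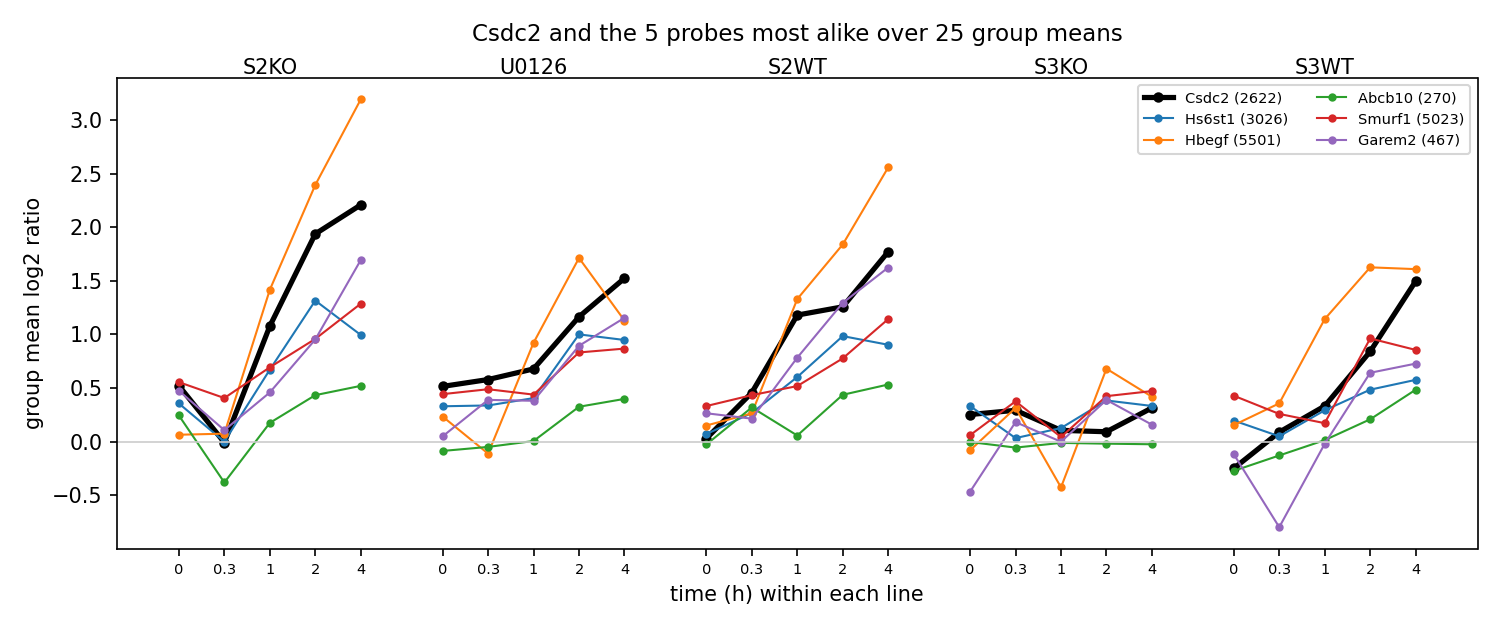
Group mean log2 ratio (vertical axis) of Csdc2 probe 2622 in black and of the 5 probes with the highest Pearson r to it, over the 5 times in h (horizontal axis) of each line. Lines join the times within a labelled line. At 4 h Hbegf stands at 3.19 in S2KO and 2.56 in S2WT, above Csdc2, and in S3KO it runs between -0.43 and 0.68.

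Of 7 other cold-shock-domain genes, 2 had single-symbol probes, and neither was called in any line, where the share called over all probes was 0.0719% to 1.53%, so that 0 of 2 sets them apart from no other pair of probes. Carhsp1, a paralog of Csdc2 that also binds messages, was at -0.01 ± 0.19 in S2KO, -0.08 ± 0.19 in S3KO, 0.17 ± 0.19 in U0126, -0.16 ± 0.19 in S3WT and -0.08 ± 0.19 in S2WT. Ybx3, a Y-box repressor of translation, lay between -0.59 and 0.20. The cold-inducible RNA-binding genes Cirbp and Rbm3, whose proteins carry another kind of RNA-binding domain, were not called in any line either and lay between -0.36 and 0.29. None of the 3 replacement histone genes looked for had a single-symbol probe.

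Among TGF-β reference genes, 9 of 10 had a probe. The list was drawn up with earlier results of these data known, so its shares called are a description and no enrichment is read from them. In S2KO 5 of 13 probes were called higher, against 0.393% of all probes, those of Hbegf, Gadd45b, Snai1, Skil and 1 of Smurf2, with a list median of 0.51 against -0.03 over all probes. In S3KO 0 of 12 were called (limma; list median 0.07, all probes 0.00), where 114 of 7469 probes, or 1.53%, were called. The list medians were 0.37 in U0126, 0.61 in S3WT and 0.47 in S2WT, with 0 of 13, 1 of 12 and 2 of 12 called, against 0.0719%, 0.12% and 0.192% of all probes. The median of all probes was -0.01 in U0126, 0.00 in S3WT and 0.02 in S2WT.

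Of the 5 nearest genes on each side of Csdc2 on chromosome 15, in the RefSeq table of GRCm38.p6, Phf5a and Pmm1 had single-symbol probes. Pmm1, a phosphomannomutase gene, was at -0.02 ± 0.28 in S2KO, 0.08 ± 0.28 in S3KO, -0.16 ± 0.28 in U0126, -0.44 ± 0.28 in S3WT and 0.33 ± 0.28 in S2WT, and was called in none. Phf5a, a splicing factor gene, was not called in the 4 lines where it was tested, with values from -3.06 to 0.72 and SEs of 0.98 to 1.15. The share called over all probes was 0.0719% to 1.53% by line, so the lack of a call does not set Pmm1 and Phf5a apart from other probes.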

How the data were processed

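The deposited table holds 1 log2 ratio per probe and array, signed, as the authors deposited it. The sources used here do not give how the images were scanned, corrected and normalised. Of these values, 1344 lie above 16.6, far outside the other ratios, and were set to missing, and 41670 cells are blank. Each array was then centred on its median, as the deposited medians ran from -0.60 to 0.22. Group means were fitted over all 74 arrays by least squares in R 4.3.3, with variances moderated by squeezeVar of limma 3.58.1, for probes with at least 2 arrays in each group compared. Intervals are 95% intervals of that fit. The number of arrays limits the precision.

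Gene symbols came from the platform annotation (7348 probes with 1 symbol, 399 with several, 1229 with none), updated by gene ID for 7274. Csdc2, the lists and the rules for named genes (every Csdc2 probe, the 5 most and 3 least alike probes, the list members and the 5 nearest genes on each side) were chosen with earlier results of these data known. The fit was tested on simulated data. Alternatives are given at the end.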

Additional observations from a re-analysis of the deposited data

How the results depend on the processing

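Outside fits that left out 1 array, 343 of 369 values for the 2 probes counted as kept. Tested values had to keep their direction and side of the threshold. Values without a test had to move by no more than 1 SD within groups, whatever their sign, and that SD is wide for probe 7126. Fits on the lines compared alone, or on probes measured on every array, leave the value itself unchanged, so values without a test could not move there. The count is therefore no measure of robustness. The S2KO late response of probe 2622 was 1.27 without centring (limma, adjusted p = 0.0516), 0.85 with scaling and 1.22 on S2KO arrays alone, and lost its call in each. The S3WT late response was called at 1.32 with scaling, 0.94 with array weights and 0.89 against 0. In S3WT those settings called 25 of 8340, 61 of 8340 and 733 of 8506 probes. The U0126 late response was called at 1.12 against 0, where 1214 of 8504 probes were called and the 0 h background of 0.51 stays in. It was 0.91 against pooled 0 h arrays and 0.92 with S3KO left out of the pool. Both of these are a description, because the pools hold S2WT arrays. Steps from 1 to 4 h were called in S2KO without centring (1.43) and with array weights (1.54) and in S3WT with scaling (1.30). S3KO minus S2KO was called at -1.57 against 0, where 112 of 7427 probes were called. U0126 minus S2WT moved to -0.47 without centring and -0.28 against 0, and S2KO minus S2WT on probe 7126 was 2.38 and moved to 0.68 against 0.

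Some signs turned, for values that were not called, beside the differences from S2WT given above. S3KO late on probe 2622 was 0.17 against 0. S3WT at 0.3 h on probe 2622 was -0.13 and -0.12 against the pools with and without S3KO, and S3KO at 0.3 h was -0.0033 with array weights. On probe 7126 at 0.3 h, U0126 was 0.024, 0.068 and 0.052 and S3WT 0.35, 0.39 and 0.38 against 0 and the same pools. For the differences and steps, pooled backgrounds cancel and give no further value. In these results the cause was not tested.

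Leaving out 1 array moved probe 2622 between 1.11 and 1.42 for S2KO late, -0.15 and 0.052 for S3KO late, 0.77 and 1.45 for S3WT late, -0.069 and 0.23 for S3KO at 0.3 h, -0.033 and 0.65 for S3WT at 0.3 h, 0.78 and 1.74 for the S2KO step, 0.74 and 1.64 for the S3WT step and 0.38 and 0.95 for the S2WT step. Probe 7126 moved between -0.52 and 2.34 for the S2WT step, -1.12 and 3.93 for S2KO, -0.11 and 1.56 for U0126, -5.47 and -2.25 for S3WT, and at 0.3 h between -2.63 and 0.64 in S3KO and -0.61 and 0.085 in S3WT. A group left with 1 array is assumed to vary like the others.

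With the replicate block, probe 2622 was at 1.22 in S2KO (limma, adjusted p = 0.0248) and 1.14 in S3WT (adjusted p = 0.0622), and the block changed no call of either Csdc2 probe. Over all probes it gave 50 calls in S2KO, 23 in S3WT and 28 in S3KO minus S3WT, against 42, 10 and 9 without it. After subtraction of group means, same-numbered arrays of a line at different times correlated at a median of 0.02 to 0.10. Of these 26 to 30 pairs per line, 1 to 15 were above 0.1. Other-numbered pairs had medians of -0.077 to -0.024. Deviations from a group mean cancel within the group, so these negative values are not a separate observation. Same-numbered arrays were thus more alike in all 5 lines, but not every pair passed 0.1 and no label states a shared batch, so the numbers were not taken to pair the arrays. Called probes over the whole table ranged from 0 to 2214 under alternatives (42 as fitted) in S2KO, 0 to 203 (114) in S3KO, 0 to 1214 (6) in U0126, 2 to 733 (10) in S3WT, 0 to 36 (9) in S3KO minus S3WT and 0 to 112 (16) in S3KO minus S2KO. Leaving out 1 array gave 17 to 119, 51 to 592, 4 to 33, 2 to 68, 2 to 311 and 0 to 266 in the same order, and the highest S3KO counts (592, 311 and 266) came without S3KO 0 h replicate 3. Among the alternatives, the highest counts in S2KO (2214), U0126 (1214), S3WT (733) and S3KO minus S2KO (112) came from treated arrays against 0.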

Other observations

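Ranked by likeness to probe 7126 over the 23 groups in which it had at least 2 arrays, the 5 most alike probes were those of Ccn1 (0.88), a matricellular protein, Stk40 (0.71), a pseudokinase, Nuak1 (0.67), an AMPK-related kinase, Zmynd19 (0.67) and Sar1a (0.67), a GTPase of vesicle export. The 3 least alike were D10Wsu102e (-0.70), Eif4e2 (-0.67), a cap-binding protein, and 9430052C07Rik (-0.65). None of these was among the 5 most or 3 least alike to probe 2622. The group means of the 2 Csdc2 probes correlated with r = 0.47 over the same 23 groups, and these values are a description.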
